A study of Homo sapiens with 8 samples.

Results

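The genes described here are 34 genes of protein folding and quality control in the endoplasmic reticulum (ER): chaperones, disulfide isomerases, the sensors of the unfolded protein response, and the machinery of ER-associated degradation (ERAD). They were taken from a list of gene symbols, and a gene counted as measured when a row of the array table was annotated to its symbol alone. This held for 33 of the 34 genes, which have 34 of the 18495 rows because P4HB has 2. HSP90B1, the ER paralogue of the cytosolic HSP90 chaperones, has only rows annotated to several genes, so its expression was not analysed here and it enters only the count of promoter motifs. RNA came from PNT2, an immortalized and long-established line grown from normal human prostate epithelium. The siESRP group is 4 arrays of cells in which short interfering RNAs (siRNA) had depleted both ESRP1 and ESRP2, epithelial RNA-binding proteins that regulate splicing, and the siGFP group is 4 arrays of control cells given siRNA against green fluorescent protein. Per the labels, RT-PCR put the knockdown close to 80%. All 8 arrays are of this 1 line after siRNA transfection, and an effect of losing the ESRP proteins cannot be told apart from other effects of those siRNA sequences.

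Proteins that enter the secretory pathway are threaded into the ER, glycosylated, folded by chaperones and joined by disulfide bonds. When unfolded proteins accumulate, the sensors IRE1 (gene ERN1), PERK (gene EIF2AK3) and ATF6 switch on the unfolded protein response, in which the transcription factors ATF6 and XBP1 raise chaperone and ERAD genes and PERK slows translation and raises ATF4. ERAD recognizes proteins that fail to fold, moves them back to the cytosol and hands them to the proteasome. Epithelial cells that secrete or carry many membrane glycoproteins depend on this system.

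Of the 33 measured genes, 8 were higher in siESRP and 0 were lower (limma, adjusted p under 0.05 over all 18495 rows). Across all rows of the array, 10.9% were called higher and 9.31% lower. All 33 had a mean intensity of at least 100, and among the 11852 rows of at least that brightness 14.9% were called higher and 13.5% lower. At an unadjusted p under 0.05, 13 of the 33 were higher and 1, SYVN1, was lower. In either direction 5094 of those 11852 rows passed at that level, a share close to that of the 33 genes. The median log2 difference of the 33 genes was 0.15, against −0.02 over all rows, and 26 of the 33 values were above 0, against 8319 of all 18495 rows. The largest differences belonged to EDEM1 and UGGT2, enzymes that deal with the sugar chains of misfolded glycoproteins, at 2.00-fold and 1.87-fold. The other 6 called genes rose by less than 1.5-fold, and HYOU1 had the smallest log2 difference among them, 0.20. With a minimum of 1.5-fold, which 4.68% of all rows passed in the upward direction, EDEM1 and UGGT2 were the 2 genes called. No test of the list as a whole was made.

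**Figure D1:**
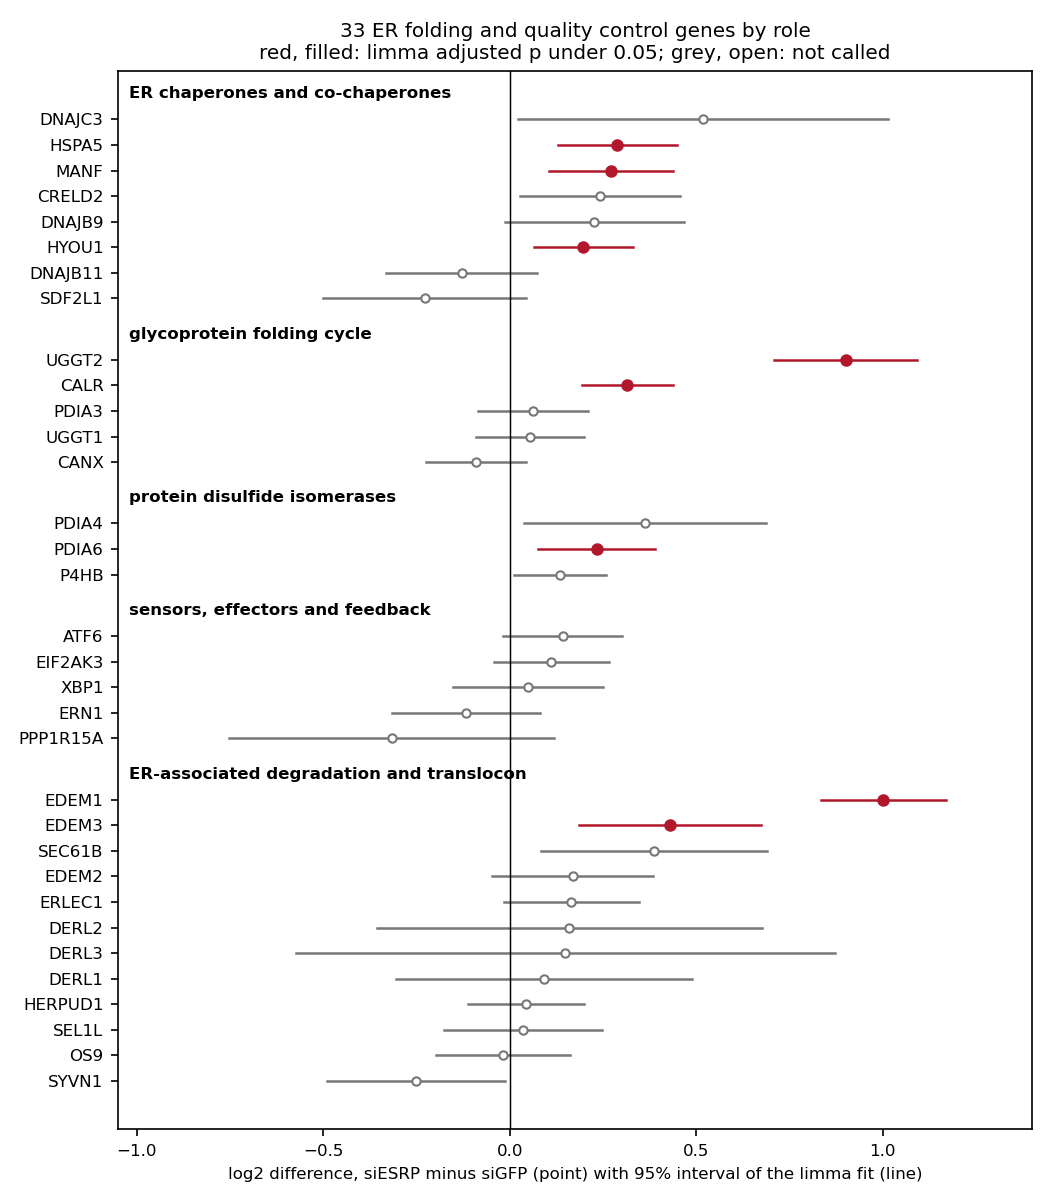
Log2 difference between siESRP and siGFP for the 33 measured ER genes, ordered within 5 roles, with the 95% interval of the limma fit. The 8 red genes were called higher, EDEM1 and UGGT2 lie near 1, and none of the 5 sensor, effector and feedback genes was called.

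Many ER genes carry short elements in their promoters that the ATF6 and XBP1 proteins bind together with the factor NF-Y, so the promoters show what these genes share by sequence. RefSeq windows of 250 bases before to 50 after the transcript start (build GRCh38.p14) were held for 31 of the 34 genes. The ER stress element (ERSE) is CCAAT, 9 bases, CCACG, searched on both strands without mismatches. It was found in 7 of the 31 genes and in 0.0916% of the 27305 genes with a window: CALR, CANX, CRELD2, HSP90B1, HSPA5, PDIA6 and XBP1. The type II element, ATTGGNCCACG, was found in HERPUD1, HYOU1 and SDF2L1, and in 0.0696% of all genes. HYOU1 was also the only one of the 31 with TGACGTGG, the core of the unfolded protein response element, which overlaps its distal type II element and occurs in 0.927% of all genes. The CCACG box alone, which is contained in both elements and, read on the other strand, in that core, stood in 23 of the 31 genes and in 42.1% of all genes. The stretches below end before the transcript start of the window they were read from. PDIA6 and XBP1 have a second window, and for these the one with the element is shown. The stretches set 4 genes that rose with an element beside XBP1 and CRELD2, which did not pass with one, and beside EDEM1 and UGGT2, which have neither element. Capitals mark the fixed letters of the ERSE or type II element, and in EDEM1 and UGGT2 the CCACG box on either strand.
HSPA5 (chr9:125241344-125241503, minus strand): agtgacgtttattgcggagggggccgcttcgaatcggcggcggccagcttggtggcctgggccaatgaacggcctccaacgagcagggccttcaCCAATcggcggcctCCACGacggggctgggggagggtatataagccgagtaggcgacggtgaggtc
CALR (chr19:12938369-12938417, plus strand): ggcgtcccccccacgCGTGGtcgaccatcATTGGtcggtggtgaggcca
PDIA6 (chr2:10812838-10812886, minus strand): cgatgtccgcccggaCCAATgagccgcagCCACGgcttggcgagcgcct
HYOU1 (chr11:119057259-119057405, minus strand): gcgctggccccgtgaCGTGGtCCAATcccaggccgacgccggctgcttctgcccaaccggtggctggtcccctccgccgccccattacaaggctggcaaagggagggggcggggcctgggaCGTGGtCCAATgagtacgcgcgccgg
XBP1 (chr22:28800588-28800636, minus strand): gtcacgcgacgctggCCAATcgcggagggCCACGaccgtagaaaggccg
CRELD2 (chr22:49918539-49918587, plus strand): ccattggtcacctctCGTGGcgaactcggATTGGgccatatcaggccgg
EDEM1 (chr3:5187557-5187706, plus strand): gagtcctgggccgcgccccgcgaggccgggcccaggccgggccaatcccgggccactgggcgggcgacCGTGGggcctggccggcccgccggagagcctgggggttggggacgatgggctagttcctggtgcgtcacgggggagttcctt
UGGT2 (chr13:96053402-96053551, minus strand): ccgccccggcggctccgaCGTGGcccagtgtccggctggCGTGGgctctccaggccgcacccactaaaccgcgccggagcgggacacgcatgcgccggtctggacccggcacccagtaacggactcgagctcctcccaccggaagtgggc

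The element sat close to the start in HSPA5, with its first base at −66, in PDIA6 at −86 and in XBP1 at −52, and farther away in CALR at −225. HYOU1 has its type II elements at −185 and −79, and both read on the opposite strand. Of the 9 measured genes with an ERSE or a type II element, 4 rose (HSPA5, HYOU1, CALR and PDIA6) and 5 did not pass (XBP1, CANX, CRELD2, SDF2L1 and HERPUD1). Of the 21 measured genes with a window and neither element, 4 rose (MANF, UGGT2, EDEM1 and EDEM3). These are 44.4% and 19.0%, against 14.9% called higher among all rows with a mean of at least 100. The median log2 difference was 0.20 with an element and 0.16 without. A match describes letters in this window and is not evidence that a factor binds there.

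**Figure D2:**
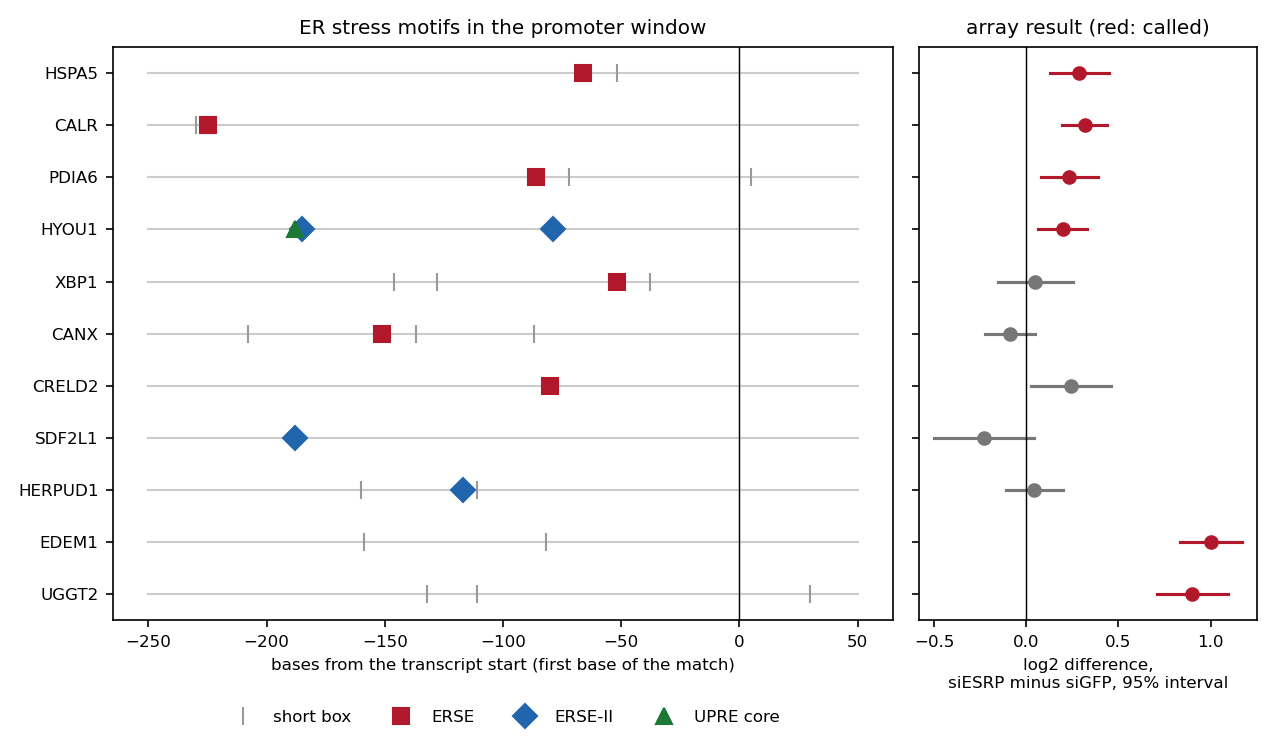
Left, first base of each motif match, in bases from the transcript start, in 1 promoter window per gene (the short box is the CCACG box on either strand). Right, log2 difference of the same gene with its 95% interval; HSPA5, CALR, PDIA6 and HYOU1 have an element and were called higher, EDEM1 and UGGT2 were called with neither element.

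Among chaperones and their partners, HSPA5, MANF and HYOU1 rose, and 5 of the 8 measured genes did not pass. The share that rose, 37.5% against 14.9% of all rows with a mean of at least 100, was not tested. HSPA5 encodes BiP, the main Hsp70 chaperone of the ER and the protein that holds the stress sensors inactive. Its quantile-normalized intensities were 2964, 3471, 2944 and 3447 in siGFP replicates 1 to 4 and 3911, 3924, 3912 and 3866 in siESRP. On this scale the siESRP arrays were nearly identical and all above the siGFP arrays, among which replicates 2 and 4 were the higher ones. As deposited, siESRP ran from 3558 to 4184 and siGFP from 2847 to 3370, with siGFP replicate 4 the lowest. The normalized mean went from 3206 ± 292 to 3903 ± 25.6 (SD, n = 4 each), 1.22-fold (log2 difference 0.29 ± 0.07 SE, limma adjusted p = 0.0246).

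MANF, a small secreted protein of the ER that helps cells survive ER stress, measured 1392, 1368, 1514 and 1306 in siGFP and 1598, 1578, 1710 and 1850 in siESRP. The normalized groups did not overlap, and the mean rose 1.21-fold from 1395 ± 87.4 to 1684 ± 125 (SD, n = 4 each, limma adjusted p = 0.0355). HYOU1, a large Hsp70-type protein that exchanges the nucleotide of BiP, measured 1187, 1161, 1099 and 1150 in siGFP and 1311, 1445, 1253 and 1268 in siESRP. Its normalized groups did not overlap either, but the rise was small and lay at the threshold (log2 difference 0.20 ± 0.06 SE, limma adjusted p = 0.0498). As deposited, the groups of MANF and of HYOU1 overlapped.

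DNAJC3, a J-domain protein that also inhibits PERK, had the highest log2 difference of the chaperone group, 0.52 ± 0.21 SE, without passing (limma adjusted p = 0.138). Its siGFP values were 337, 579, 411 and 587 and its siESRP values 656, 812, 554 and 671. The siGFP arrays split, with replicates 2 and 4 well above 1 and 3 and above the siESRP minimum. CRELD2, a secreted ER stress protein, measured 396, 373, 355 and 375 in siGFP and 457, 459, 494 and 372 in siESRP. In CRELD2, 3 siESRP arrays exceeded every control and replicate 4 did not (log2 difference 0.24, limma adjusted p = 0.113). Without siESRP replicate 4 it was 0.33 (limma adjusted p = 0.0152), the only 1 of 16 alternatives in which CRELD2 passed.

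The J-domain proteins DNAJB9 and DNAJB11, which deliver clients to BiP, had log2 differences of 0.23 and −0.13 (limma adjusted p = 0.175 and 0.361). DNAJB9 was at 604 and 614 in siESRP replicates 1 and 2, within its siGFP range of 552 to 612 or next to it, and at 774 and 768 in replicates 3 and 4. SDF2L1, a partner of DNAJB11 in the same complexes, had −0.23 (limma adjusted p = 0.226), with siESRP values from 301 to 428 and siGFP values from 397 to 450.

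**Figure D3:**
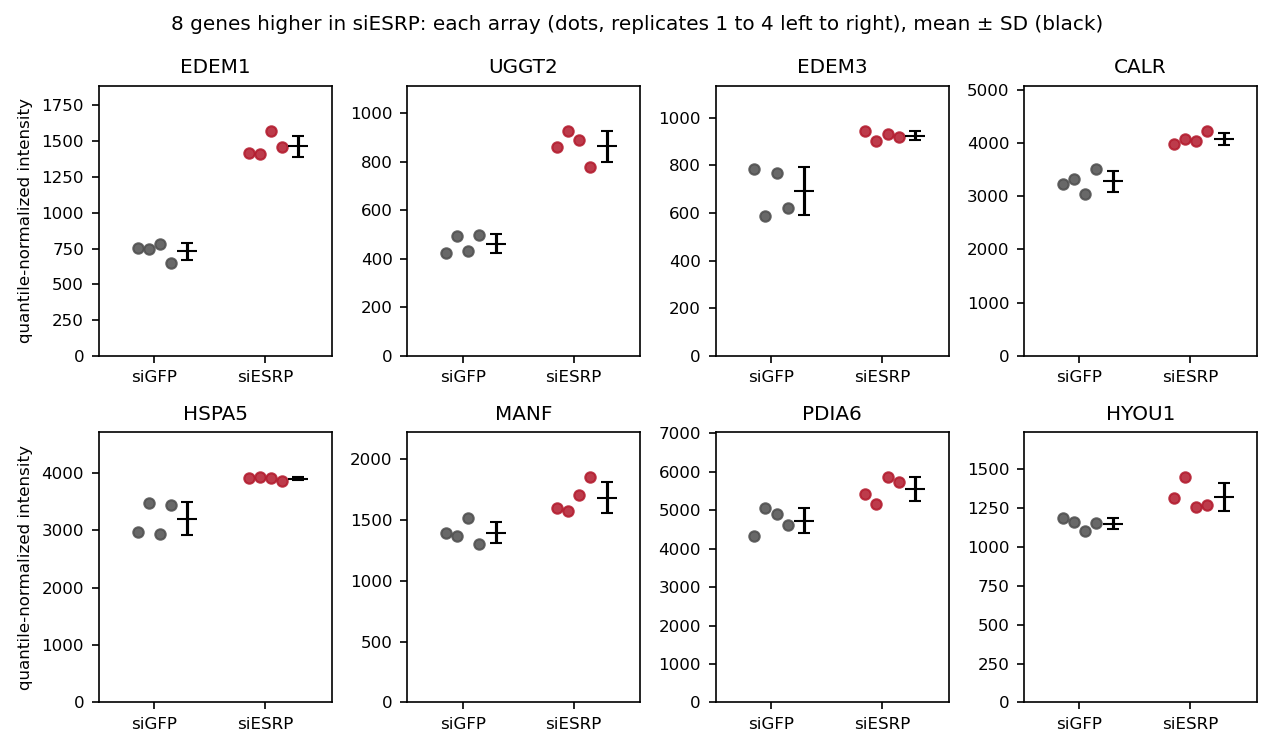
Quantile-normalized intensity of the 8 called genes on each of the 8 arrays, with mean ± SD per group; axes start at 0. On this scale the 4 siESRP arrays lie above the 4 siGFP arrays in all 8 genes, with a wide gap for EDEM1 and UGGT2. The gap is narrow for PDIA6, whose lowest siESRP value is 5169 and highest siGFP value 5048. As deposited, the groups of HYOU1, MANF, PDIA6 and EDEM3 overlap.

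In the calnexin and calreticulin cycle, in which lectin chaperones hold glycoproteins by their trimmed sugar chains, 2 of 5 genes rose. This is 40.0%, against 14.9% of all rows with a mean of at least 100, and was not tested in so few genes. UGGT2 encodes a paralogue of UGGT1, the folding sensor that puts a glucose back on misfolded glycoproteins so that they return to the lectins. UGGT2 intensities were 426, 495, 432 and 498 in siGFP and 862, 927, 890 and 776 in siESRP. Every siESRP array was above every siGFP array by a wide margin. The mean rose 1.87-fold from 463 ± 39.1 to 864 ± 64.0 (SD, n = 4 each, log2 difference 0.90 ± 0.08 SE, limma adjusted p = 0.000594). UGGT1 itself was 1595 ± 109 in siGFP and 1655 ± 76.4 in siESRP, with a log2 difference of 0.05 and a 95% interval from −0.09 to 0.20.

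CALR, the soluble lectin calreticulin, measured 3236, 3318, 3047 and 3507 in siGFP and 3970, 4072, 4029 and 4224 in siESRP. The groups did not overlap, and the mean rose 1.24-fold (log2 difference 0.32 ± 0.05 SE, limma adjusted p = 0.00654). CANX, its membrane-bound counterpart calnexin, went from 3727 ± 222 to 3499 ± 141 (SD, n = 4 each, limma adjusted p = 0.334). The 95% interval of its log2 difference, −0.22 to 0.04, lies below that of CALR, 0.19 to 0.44. PDIA3, the disulfide isomerase that works with both lectins, had 0.06 (limma adjusted p = 0.547).

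The ratio between related genes was compared within each array for 11 pairs, which were chosen after their values had been seen. The UGGT2 to UGGT1 ratio was 1.80-fold higher in siESRP, CALR to CANX 1.32-fold, EDEM1 to EDEM2 1.78-fold and EDEM1 to EDEM3 1.49-fold. For each of these 4 pairs the exact permutation test (two-sided) gave p = 0.0286, which is the lowest value this design allows. Adjusted over the 11 pairs the value is 0.0786, so none passed. With 4 of the 11 pairs at the lowest possible p, no smaller adjusted value could arise. The adjusted test therefore cannot decide whether these ratios differ. Each of the 4 pairs holds EDEM1, UGGT2 or CALR, which were already called. The other 7 pairs had exact permutation p-values from 0.0571 (DNAJB9 to DNAJB11, 1.28-fold) to 0.971.

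The 3 disulfide isomerases outside that cycle all had positive differences, and PDIA6 passed. PDIA6 measured 4324, 5048, 4909 and 4611 in siGFP and 5433, 5169, 5851 and 5742 in siESRP, 1.18-fold (log2 difference 0.23 ± 0.07 SE, limma adjusted p = 0.0482). PDIA4 had a larger difference, 0.36 ± 0.14 SE, that did not pass (limma adjusted p = 0.115). Its siGFP values were 2040, 2899, 2153 and 2026, so that replicate 2 stood with the siESRP values of 2656, 2828, 3401 and 2757. Without siGFP replicate 2 the PDIA4 difference was 0.48 (limma adjusted p = 0.0217), the only 1 of 16 alternatives in which it passed.

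P4HB, the founding protein disulfide isomerase, has rows that gave different calls. The row with the higher mean, used here, measured 3900, 3642, 3507 and 3934 in siGFP and 3993, 4110, 4296 and 4035 in siESRP, and did not pass although the groups did not overlap (log2 difference 0.13, limma adjusted p = 0.121). The other row had 0.18 and passed (limma adjusted p = 0.0474). SEC61B and P4HB were the genes whose normalized groups did not overlap without a call. As deposited, the groups of both genes overlapped. In all, 10 of the 33 genes had all siESRP arrays above all siGFP arrays on the normalized scale and 0 the reverse, against 12.7% and 12.0% of all rows. Those shares include dimmer rows, and the shares among rows with a mean of at least 100 are not given here.

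None of the 5 genes for the sensors, their effectors and feedback passed, at an adjusted or at an unadjusted p under 0.05 (limma). ATF6 was 1160 ± 81.1 in siGFP and 1279 ± 78.5 in siESRP (log2 difference 0.14, 95% interval −0.02 to 0.30). EIF2AK3 had 0.11 (−0.04 to 0.27) and ERN1 −0.12 (−0.31 to 0.08). XBP1, whose messenger RNA is spliced by IRE1 into the active form, measured 1072, 1312, 1118 and 1275 in siGFP and 1240, 1355, 1176 and 1162 in siESRP (log2 difference 0.05, −0.15 to 0.25). A gene-level row does not tell its spliced from its unspliced form. PPP1R15A, the phosphatase subunit that reverses the translation block of PERK, had the lowest difference of all 33 genes, −0.32 ± 0.18 SE, without passing (limma adjusted p = 0.291). Its siGFP values, 688, 1051, 786 and 1122, spread more widely than its siESRP values of 616, 753, 666 and 855.

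In ERAD and at the translocon, 2 of 12 genes rose, both of them EDEM genes. This is 16.7%, close to the 14.9% called higher among all rows with a mean of at least 100. The EDEM proteins trim mannose from misfolded glycoproteins, which marks them for degradation. EDEM1 measured 751, 745, 784 and 648 in siGFP and 1420, 1409, 1572 and 1458 in siESRP. Each siESRP array was far above all siGFP arrays, and the mean rose 2.00-fold from 732 ± 58.7 to 1464 ± 74.5 (SD, n = 4 each, log2 difference 1.00 ± 0.07 SE, limma adjusted p = 0.000256).

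EDEM3 measured 786, 588, 770 and 621 in siGFP and 945, 902, 932 and 920 in siESRP. On the normalized scale, as with BiP, the siESRP arrays lay close together while the siGFP arrays split, here with replicates 1 and 3 the higher ones. As deposited, EDEM3 ran from 848 to 1012 in siESRP and from 531 to 871 in siGFP. The normalized mean rose 1.35-fold (log2 difference 0.43 ± 0.10 SE, limma adjusted p = 0.0265). EDEM2 was 387 ± 49.7 in siGFP and 433 ± 15.9 in siESRP (SD, n = 4 each) and did not pass (log2 difference 0.17, limma adjusted p = 0.260). Without siGFP replicate 2 it was 0.25 (limma adjusted p = 0.0436), the only 1 of 16 alternatives in which EDEM2 passed.

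The lectins OS9 and ERLEC1, which read the trimmed sugar and bring clients to the ligase, had log2 differences of −0.02 and 0.17 (limma adjusted p = 0.915 and 0.192). SYVN1, the ubiquitin ligase HRD1 at the centre of ERAD, measured 652, 611, 511 and 681 in siGFP and 469, 500, 554 and 532 in siESRP. The groups overlapped only through siGFP replicate 3, and the difference of −0.25 did not pass (limma adjusted p = 0.135). Without that array it was −0.33 and passed (limma adjusted p = 0.0300), the only call in the downward direction under any alternative. SEL1L, the adaptor that stabilizes this ligase, had 0.03 (95% interval −0.18 to 0.25). HERPUD1, a stress-induced membrane protein of the same complex, had 0.04 (−0.11 to 0.20).

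The derlins, membrane proteins of the exit channel, were imprecise. DERL1 measured 1493, 2404, 1793 and 2214 in siGFP and 2038, 2491, 1898 and 1911 in siESRP, with a 95% interval from −0.30 to 0.49. DERL2 had an interval from −0.36 to 0.68, and DERL3, the dimmest of the 33 genes, one from −0.57 to 0.87. DERL3 was at 47.5 in siGFP replicate 2 and between 96.4 and 126 on the other 7 arrays. Without siGFP replicate 2 its log2 difference turned from 0.15 to −0.17 (limma adjusted p = 0.253). SEC61B, a subunit of the translocation channel, measured 1894, 1436, 1702 and 1749 in siGFP and 2435, 2572, 1986 and 1904 in siESRP. Its groups were separate by a narrow margin (log2 difference 0.39 ± 0.13 SE, limma adjusted p = 0.0794).

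**Figure D4:**
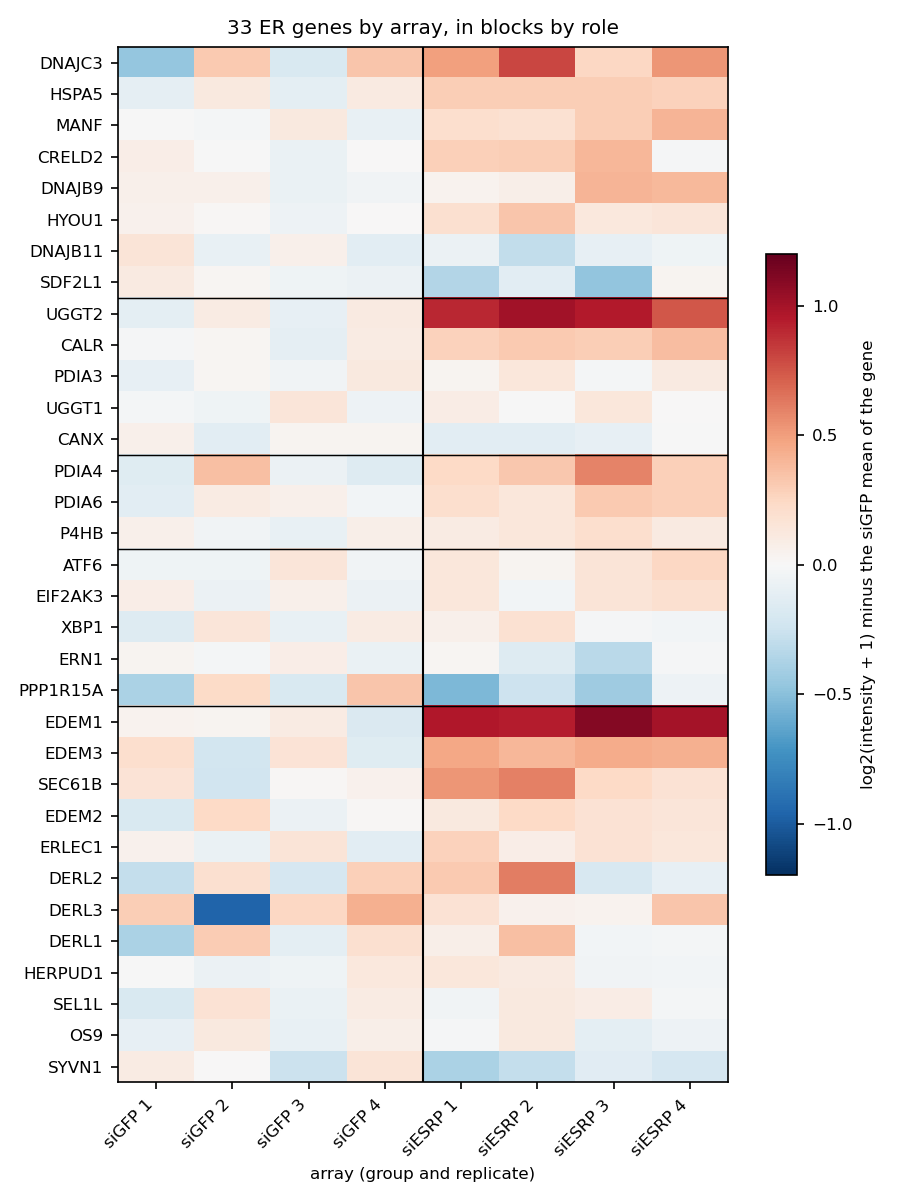
Log2(intensity + 1) of each of the 33 genes on each array, minus the siGFP mean of the gene, in blocks by role; red is above and blue below that mean. EDEM1 and UGGT2 are deep red on all 4 siESRP arrays, while DNAJC3, DERL1, DERL2 and PPP1R15A differ among the siGFP arrays at least as much as between groups.

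After quantile normalization, control arrays differed among themselves in these genes. The orders given here are of normalized values and can differ as deposited, as they did in HSPA5. In 12 of the 33 genes siGFP replicates 2 and 4 were both above replicates 1 and 3, and in 9 both were below, while the same orders held in 3010 and 3094 of the 11852 rows with a mean of at least 100. The highest siGFP value was 2.65 times the lowest for DERL3, 1.74 times for DNAJC3, 1.63 for PPP1R15A and 1.61 for DERL1, against 1.08 for HYOU1. The median SD on the log2 scale over the 33 genes was 0.12 in siGFP and 0.10 in siESRP. Averaged over the 33 genes, the siESRP arrays stood 0.16, 0.20, 0.15 and 0.17 above the siGFP mean on the log2 scale, and the siGFP arrays lay between −0.04 and 0.05. The part of this array pattern in the results was not tested.

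Of the 8 calls, EDEM1, UGGT2 and CALR were kept whichever array was left out, with limma adjusted p up to 0.00177, 0.00353 and 0.0212. The other 5 lay near the threshold. HSPA5 was lost without siGFP replicate 1 or 3 or any 1 siESRP array (limma adjusted p 0.0513 to 0.0660), and EDEM3 without siGFP replicate 4 or any 1 siESRP array (0.0550 to 0.0701). MANF was kept only without siGFP replicate 3 or siESRP replicate 2, and was otherwise at 0.0572 to 0.0880. PDIA6 was kept only without siGFP replicate 2 or siESRP replicate 2, and was otherwise at 0.0704 to 0.116. HYOU1 was kept only without siESRP replicate 3, and was otherwise at 0.0716 to 0.113. The directions of these 8 genes did not change under any of the 16 alternatives. On the intensities as deposited, without normalization between arrays, only EDEM1 and UGGT2 passed, and with median scaling HSPA5 and CALR passed besides these. As deposited, the groups of HSPA5, CALR, UGGT2 and EDEM1 stayed separate, and those of HYOU1, MANF, PDIA6 and EDEM3 overlapped.

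Of 130 other genes of the ER in 6 lists, 108 were measured, and 18 were higher and 14 lower in siESRP (limma), with a median log2 difference of 0.02. As shares of the 108 these are close to those among all rows with a mean of at least 100, 14.9% and 13.5%, and the counts below are given as a description of each list. Of 15 translocon and signal sequence genes, 4 rose and 1 fell. SEC61A2, an alpha subunit of the translocation channel, rose 1.62-fold from 257 ± 17.4 to 416 ± 20.7, SRPRA, of the signal recognition particle receptor, rose 1.29-fold, and TRAM2 fell from 1145 ± 85.1 to 674 ± 54.3 (SD, n = 4 each). Of 22 genes of oxidative folding and co-chaperones, 5 rose and 2 fell. FKBP7, a prolyl isomerase of the ER, rose 2.43-fold from 71.2 ± 7.23 to 174 ± 17.5. ERO1A, the oxidase that recharges the disulfide isomerases, rose 1.36-fold, and its paralogue ERO1B rose from a mean of 48.0 near background to 102.

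Of 15 genes of glycan trimming and ER exit, 3 rose and 0 fell (limma; 3 and 0 at an unadjusted p under 0.05). They were the mannosidase gene MAN1A2 (1.56-fold), MCFD2, a subunit of a cargo receptor (1.47-fold), and KDELR3, a receptor that returns escaped chaperones to the ER (1.53-fold). Of 22 further ERAD genes, 1 rose, 5 fell and 16 were not called. ERLIN1 rose 1.52-fold, HERPUD2 fell from 1178 ± 102 to 765 ± 119 and the rhomboid protease gene RHBDD1 from 1640 ± 190 to 1081 ± 106 (SD, n = 4 each). Of 15 further stress transducers and their regulators, 0 passed in limma, with 3 higher and 3 lower at an unadjusted p under 0.05.

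In the arm of the response that runs through ATF4, 5 of 19 genes (26.3%) were higher and 6 (31.6%) lower. Among all rows these shares were 10.9% and 9.31%, and among rows with a mean of at least 100 they were 14.9% and 13.5%. ATF4 itself had −0.21 (limma adjusted p = 0.280). STC2, a secreted glycoprotein, fell from 1533 ± 110 to 712 ± 68.8, CHAC1, which breaks down glutathione, from 439 ± 63.3 to 207 ± 40.8, and ASNS, which makes asparagine, from 1829 ± 111 to 937 ± 97.2 (SD, n = 4 each). The others that fell were DDIT3 (CHOP), TRIB3 and ATF5. Those that rose were TNFRSF10B, ATF3, SESN2, DDIT4 and EIF2AK1. EIF2AK1, like EIF2AK2 and EIF2AK4 in the same list, is a kinase other than PERK. DDIT3, the death-linked factor of the PERK branch, fell by 0.57 on the log2 scale (limma adjusted p = 0.00503), and is named here after its value was seen.

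**Figure D5:**
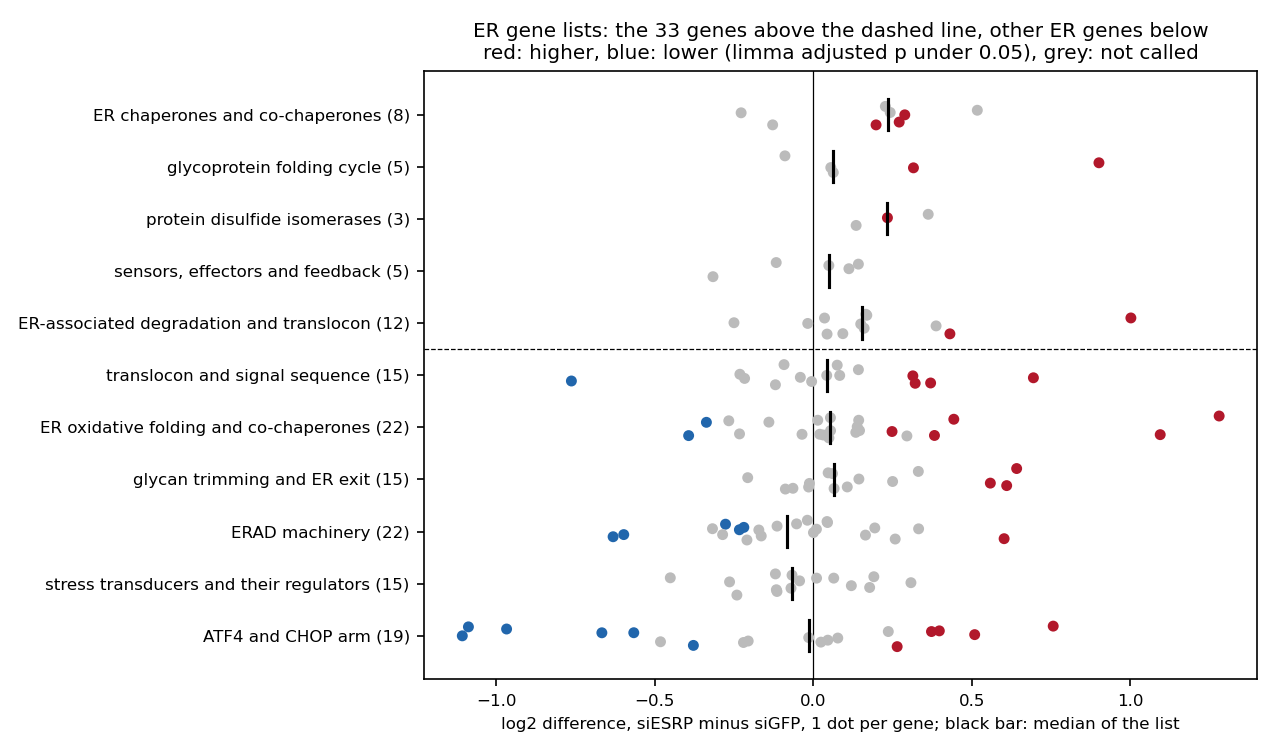
Log2 difference of each gene in the 5 roles (above the dashed line) and in the 6 lists of other ER genes (below it), with the median of each list as a black bar. Blue, lower genes are absent from the 5 roles and present in 4 of the 6 other lists, most of them in ERAD machinery and the ATF4 and CHOP arm.

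The ERSE gave a further group, defined by promoter letters and not by array values. Of the 25 genes whose promoter window holds the element, 16 had a row of their own, of which 5 rose and 3 fell. These are 31.2% and 18.8%, against 10.9% and 9.31% of all rows and 14.9% and 13.5% of rows with a mean of at least 100. The 5 include CALR, HSPA5 and PDIA6 of the 34 genes, and of the 10 other measured genes 2 rose and 3 fell. Outside the 34 genes those that rose were ERO1B and TMEM120A, and those that fell were ALG12, a mannosyltransferase that builds the sugar chain, FICD, which modifies BiP with AMP, and SERP1, a translocon-associated protein. ALG12 fell from 778 ± 65.4 to 479 ± 99.5 (limma adjusted p = 0.0210), FICD from 236 ± 10.8 to 156 ± 21.0 (limma adjusted p = 0.00753) and SERP1 from 1445 ± 200.3 to 1008 ± 104 (SD, n = 4 each, limma adjusted p = 0.0245). ALG12 and CRELD2 start on opposite strands from 1 shared element, at chr22:49918554-49918572, and their log2 differences were −0.72 and 0.24. SERP1 and EIF2A likewise share 1 element, at chr3:150546710-150546728, with −0.51 and 0.04.

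ESRP1, a target of the knockdown, fell from 2439 ± 169 to 582 ± 66.9 and the row annotated to both ESRP2, the other target, and NFATC3 fell from 531 ± 33.4 to 148 ± 27.4 (SD, n = 4 each, limma adjusted p = 6.58e-05 and 0.000336, exact two-sided permutation p = 0.0286 for both). The fall of the shared row cannot be assigned to ESRP2 alone. Epithelial markers were present: the summed intensity of 7 measured genes of 10, KRT8, KRT18, KRT19, EPCAM, CDH1, CLDN4 and CLDN7, ran from 23389 to 24557 in siGFP and from 26873 to 27610 in siESRP. Markers of plasma cells, a cell type rich in ER chaperones, moved in 2 of 7 genes: SDC1 rose from 583 to 1111 and PRDM1 from 176 to 402. The other 5 (MZB1, JCHAIN, POU2AF1, TNFRSF17 and IRF4) had means under 50 in both groups, and the sum of the 7 ran from 730 to 904 in siGFP and from 1482 to 1707 in siESRP. Mesenchymal and fibroblast markers (9 of 10 measured) summed to 1913 to 2022 in siGFP and 1208 to 1322 in siESRP. In that list CDH2 (1295 to 631) and COL1A1 (252 to 182) fell, and VIM (159 to 193) rose. Leukocyte markers (7 of 10) summed to 808 to 923 and 920 to 1121, in which CD68 rose (551 to 747) and CSF1R fell (154 to 80.9). Endothelial markers (8 of 8) summed to 442 to 480 and 494 to 584, in which CDH5 rose (241 to 324) and TEK, with means under 50, fell. Means were under 50 in both groups for 4 of the 7 leukocyte markers, PTPRC among them, and 5 of the 8 endothelial markers, PECAM1 among them. The same held for 3 of the 9 mesenchymal and fibroblast markers, DCN among them. CD14, VWF, CLDN5 and PDGFRB, which were not called, had means above 50 in both groups. The part of SDC1, PRDM1 and the other marker differences in the results on ER genes was not tested. In bulk RNA, fewer cells of a type and less RNA per cell cannot be told apart, and whether altered exon use moved any gene-level value was not tested.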

How the data were processed

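RNA of 4 siESRP and 4 siGFP samples was hybridized to Affymetrix exon arrays, 1 array per sample, after ribosomal RNA reduction, per the labels' protocols. The authors deposited 1 linear intensity value per gene-level row and array. For background correction, probe summary and scaling the method is not given in the sources used here. Deposited array medians ran from 233 to 286, and none of the values used for the 33 genes was below 0. Arrays were quantile normalized, values below 0 set to 0, and log2(value + 1) taken, so folds are on that scale. Group means were compared with limma 3.58.1 (R 4.3.3; lmFit and eBayes, two-sided, no covariate, all 8 arrays), with Benjamini-Hochberg adjustment over 18495 rows. Intervals are 95% intervals of that fit.

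Groups come from the sample titles. No label states that replicates were separate cultures, and p-values therefore reflect only the spread among these samples, possibly technical. The number of arrays limits the precision. Row names came from GEO's platform annotation (14577 rows with 1 symbol, 2849 with several, 1069 with none), checked through Entrez IDs against RefSeq of GRCh38.p14, where 14550 matched. A gene with several rows is represented by the row with the highest mean. Every measured gene of the 34 is named. In each of the 6 lists of other ER genes, up to 3 called genes with the largest absolute difference are named, if at least 1 group mean reached 100, and further names were chosen after their values were seen. Members, lists and tests were chosen with earlier results of these data known. Promoter sequences are RefSeq's.

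The fit was tested on simulated data. Other settings tried were no normalization (values as deposited), scaling to a common median, dropping the dimmest 25% of rows, adding 16 before the log, eBayes with trend and robust options, weighting the arrays, blocking on replicate number, stricter calls (adjusted p under 0.01, or 1.5-fold as well), averaging a gene's rows, the other row of P4HB (chosen after seeing the data), and omitting each array once.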

Additional observations from a re-analysis of the deposited data

Results flagged for a closer look

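In 2 of 68 groups of values (33 genes and the target, each in siGFP and siESRP), a single array lay far from its 3 fellows: the gap to the nearest one, as a share of the whole range, exceeded Dixon's 95% critical value for 4 samples. Chance gives about 1 in 20, or 3.4 of 68. For PDIA4 in siGFP this share was 0.855, with replicate 2 at 2899 and the rest from 2026 to 2153. For ATF6 in siGFP it was 0.934, with replicate 3 at 1281 and the rest from 1115 to 1126.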

How the results depend on the processing

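The 33 genes gave 8 calls as reported. There were 2 calls on the deposited scale and also with at least 1.5-fold, 4 with median scaling, 3 at adjusted p under 0.01, and 3 to 8 when 1 array was left out. With the replicate number as a block there were 3 (CALR, UGGT2 and EDEM1). Same-numbered arrays of the 2 groups did not deviate together in all pairs (correlations 0.15, 0.09, −0.27 and −0.02 over 11852 rows), so the numbers were not taken as pairing. Differently numbered arrays reached 0.51 (siGFP replicate 3 with siESRP replicate 1) and −0.35 (siGFP replicate 4 with siESRP replicate 1). Among all rows, 3729 were called, 1673 on the deposited scale, 2292 with the replicate block, 1808 at adjusted p under 0.01, 1309 with at least 1.5-fold and 2719 to 3793 with 1 array left out. Of the other ER genes 32 were called, 14 on the deposited scale, 21 with the replicate block, 18 at adjusted p under 0.01, 14 with at least 1.5-fold and 22 to 30 with 1 array left out. Directions turned for 5 genes, none of them called either way, with 1 array left out: XBP1 ran from −0.00205 to 0.0955, SEL1L from −0.0269 to 0.0921, DERL1 from −0.0337 to 0.195, DERL3 from −0.173 to 0.295 and OS9 from −0.0638 to 0.0223. For SEC61B the call was gained without the dimmest rows, with a trended and robust eBayes and with array weights (adjusted p 0.0446, 0.0335 and 0.0393). Where a cause is not part of the alternative itself, it was not tested.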
